A study of Homo sapiens with 2 samples.

Results

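H3.Y-positive cells were the cells of a decitabine (DAC)-treated culture in which at least 1 transcript of *H3.Y* was counted. They were 60 of the 1751 DAC-treated cells (3.43%, exact 95% interval 2.62 to 4.39%) and of the 3534 cells of the whole series, and they were chosen only by their *H3.Y* molecules, each counted once by its unique molecular identifier (UMI). HCT116, a human colon cancer cell line, was either mock-treated or given 0.5 μM of DAC, an inhibitor of DNA methyltransferases, on days 1 and 3. Both cultures received drug-free medium on day 5 and were harvested on day 7 for droplet single-cell RNA sequencing. Each condition was 1 library, so the cells of a group came from 1 culture, no test was made between conditions or between cells, and all intervals below are 95% intervals that cover counting error only. The mock-treated library held 1783 cells with a median of 27899 UMIs and the DAC-treated library 1751 cells with a median of 35340 UMIs.

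*H3.Y* (*H3Y1* in current annotation) encodes a primate-specific variant of histone H3 with little expression in adult tissues. It is a known target of DUX4, a double-homeobox transcription factor that is active for a short time in the cleavage-stage embryo and otherwise silenced together with the repeat arrays that carry its gene. Other known targets of DUX4 are transcription factors such as *ZSCAN4* and *LEUTX*, ubiquitin ligase-like genes such as *TRIM43*, and the *PRAMEF*, *RFPL4* and *MBD3L* families.

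The *H3.Y* gene lies on chromosome 5 on hg38 (17654868 to 17655849, minus strand). The binding motif of DUX4, searched here on both strands as TAA, any base, C, any base and AATCA in a row, was found within 250 bases upstream of the gene start in 4 of the 69 genes made up of *H3.Y* and the cleavage-stage genes (5.80%), and in 102 of 33113 genes of the table (0.308%). Within 2000 bases the shares were 8 of 69 (11.6%) and 566 of 33113 (1.71%). The list holds known targets of DUX4, so a higher share was built into it, and the shares are not a test of these data. The near matches are shown because they are the stretches of the chosen gene and of its list in which these letters occur closest to the start. The sequences are those of hg38, read 5′ to 3′ on the strand of the gene, with the motif in capitals.
H3.Y, chr5:17655868-17655918, minus strand, motif beginning 49 bases before the start: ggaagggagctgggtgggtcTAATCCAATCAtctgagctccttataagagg
RFPL4A, chr19:55759008-55759058, plus strand, motif in reverse orientation, 69 bases before: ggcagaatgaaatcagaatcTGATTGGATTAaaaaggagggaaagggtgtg
RFPL4AL1, chr19:55769008-55769058, plus strand, motif in reverse orientation, 90 bases before: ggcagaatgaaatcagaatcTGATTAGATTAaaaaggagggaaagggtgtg
ZSCAN5B, chr19:56197844-56197894, minus strand, 59 bases before: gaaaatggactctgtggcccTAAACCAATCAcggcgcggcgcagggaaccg
*RFPL4A* and *RFPL4AL1* had nearly the same window. *ZSCAN4*, *LEUTX* and *TRIM43* had no match in the 2000 bases, which says only that these letters were not in that window.

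The molecules of *H3.Y* were unevenly distributed over the 60 cells. In total, 930 UMIs of *H3.Y* were counted in DAC-treated cells (871 to 992) and 0 in the 1783 mock-treated cells, with an exact upper limit of 0.207% on the share of mock-treated cells with a UMI (3 cells would be 0.168%). The level in the DAC-treated library was 15.8 CPM (counts scaled to the total of the library), at least 262-fold higher than 3 counts over the mock-treated library. All of these UMIs were counted under *H3.Y* alone. Its near-identical paralog *H3Y2* was not analysed here, so reads of the 2 copies could not be told apart, and UMIs given to *H3.Y* may include some of *H3Y2*. The cell with the most had 412 UMIs of *H3.Y*, which was 44.3% of all. The next 3 cells had 159, 110 and 101 UMIs, and these 4 cells held 84.1% of the molecules. The following 7 cells had 24, 16, 13, 12, 9, 8 and 6 UMIs. Of the rest, 8 cells had 2 to 4 UMIs and 41 cells had exactly 1 UMI, just inside the limit, with 1691 cells at 0 UMIs just outside it. An even share of the 930 UMIs by depth would have left 1109 cells without *H3.Y*.

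Depth overlapped between H3.Y-positive and H3.Y-negative cells, with a higher median in H3.Y-positive cells. The median total was 40809 UMIs in H3.Y-positive and 35015 UMIs in H3.Y-negative DAC-treated cells, with lower quartiles of 17236.5 and 8668, and the median share of mitochondrial UMIs was 18.7% and 18.3%. H3.Y-positive cells were 2.74% of the 584 shallowest cells, 3.42% of the next 584 and 4.12% of the 583 deepest. They were 2.18% of the cells under 10000 UMIs and 3.87% of the cells with at least 10000. Cells with over 50% mitochondrial UMIs were 7 of 60 H3.Y-positive (11.7%) and 312 of 1691 H3.Y-negative cells (18.5%). Both libraries shared 12 cell barcodes, and 1 of these belonged to an H3.Y-positive cell, which had 1 UMI.

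To compare cells at equal depth, each cell with at least 10000 UMIs was thinned to 10000 UMIs. This kept 50 H3.Y-positive cells, 1243 H3.Y-negative cells and 1388 mock-treated cells, and left out 10, 448 and 395 cells. *H3.Y* itself was still seen in 19 of the 50 cells after thinning, so the cells were assigned by their UMIs at full depth.

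Cleavage-stage genes were concentrated in a few of the H3.Y-positive cells. Of 70 listed genes, 68 were in the table, 58 had a UMI in DAC-treated cells and 55 of these had one in H3.Y-positive cells. *H3.Y* was not counted among them. At full depth, H3.Y-positive cells held 1934 of the 4130 UMIs of these genes in the DAC-treated library (46.8%) and 3.95% of all its UMIs. At 10000 UMIs per cell, H3.Y-positive cells had a mean of 14.1 UMIs of cleavage-stage genes and H3.Y-negative cells 0.356 UMI, a ratio of 39.8 (35.3 to 44.9). Mock-treated cells had 0.0771 UMI. A single cell with 365 UMIs carried most of that sum: the ratio was 19.6 without it and 6.04 without the 3 cells with the most.

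At equal depth, the excess lay in part of the cells with 2 or more *H3.Y* UMIs. The 10 cells with 5 or more *H3.Y* UMIs had a mean of 66.8 UMIs of cleavage-stage genes and a median of 10, with 365, 144 and 97 of their 668 UMIs in 3 cells and 0 to 4 UMIs in 5 cells. The 5 cells with 2 to 4 had a mean of 5.20 and a median of 1, with 17 and 8 of 26 UMIs in 2 cells. The 35 cells with 1 *H3.Y* UMI had a mean of 0.371, a ratio of 1.04 (0.552 to 1.80) to H3.Y-negative cells, so by these genes cells just inside the limit could not be told from cells just outside it at this depth. At 5000 UMIs per cell this last ratio was 0.372. At least 1 UMI of a cleavage-stage gene was found in 21 of 50 H3.Y-positive cells (42.0%, 28.2 to 56.8%), 319 of 1243 H3.Y-negative cells (25.7%) and 7.13% of mock-treated cells. Without thinning, these shares were 70.0% and 63.3% in the DAC-treated cells, at median depths of 45151 and 43876 UMIs. At least 5 UMIs were found in 7 of 50 H3.Y-positive cells, 7 of 1243 H3.Y-negative cells (0.563%) and 0 of 1388 mock-treated cells.

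**Figure D1:**
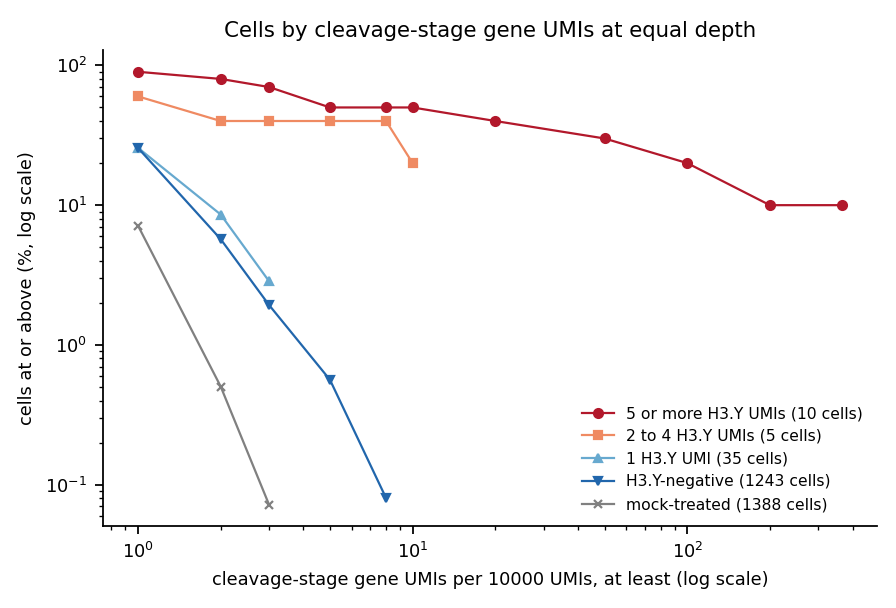
Share of cells (y axis, log scale) with at least the number of cleavage-stage gene UMIs on the x axis (log scale), at 10000 UMIs per cell, for DAC-treated cells grouped by their H3.Y UMIs and for mock-treated cells; points at 0 are not drawn. The cells with 1 H3.Y UMI run beside the H3.Y-negative cells, and 50% of the cells with 5 or more H3.Y UMIs have at least 10 cleavage-stage UMIs, a number that 0 of the 1243 H3.Y-negative cells reach.

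*H3.Y* and the cleavage-stage genes did not rise in proportion within a cell. The cell with 412 *H3.Y* UMIs had 416 UMIs of 29 cleavage-stage genes, 1.02% of its UMIs. The cell with 159 had more, 865 UMIs of 46 genes, 3.55% of its UMIs. The cell with 16 had 235 UMIs of 29 genes.
In contrast, the cell with 101 *H3.Y* UMIs had only 14 UMIs of 5 genes, and the cell with 12 had 1 UMI in a total of 3393. The cell with 110 had 79 UMIs of 5 genes, of which 63 were from *RFPL4B* alone. A cell with only 3 *H3.Y* UMIs in a total of 1671 had 34 UMIs of 9 genes, 2.03% of its UMIs. The 41 cells with 1 *H3.Y* UMI had at most 10 UMIs of cleavage-stage genes each, and 18 of them had 0. A shallow cell among them, with a total of 2305 UMIs, had 5 UMIs of 4 genes, 0.217% of its UMIs.

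**Figure D2:**
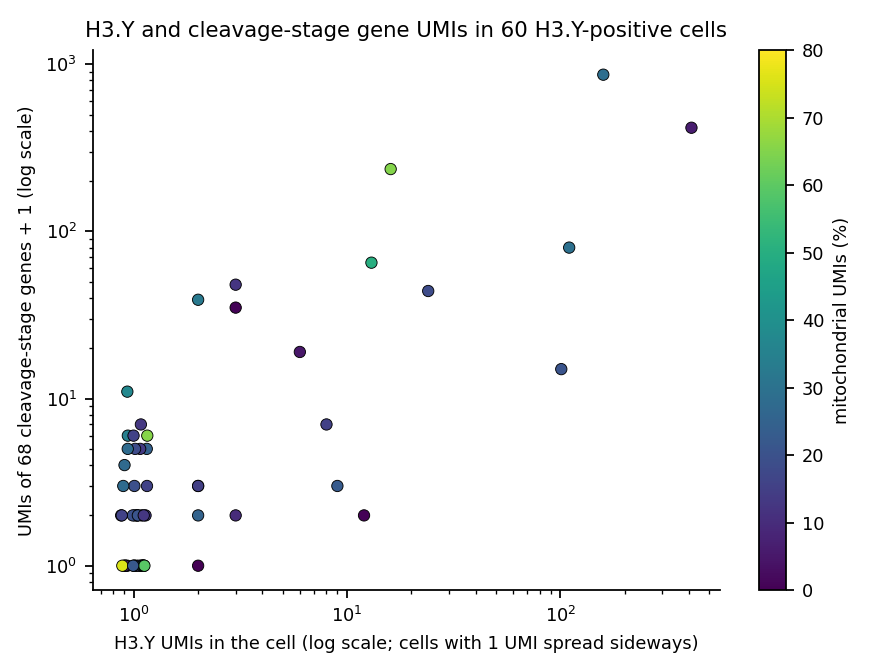
Each point is 1 of the 60 H3.Y-positive cells at full depth, with its H3.Y UMIs (x axis, log scale) against its UMIs of 68 cleavage-stage genes plus 1 (y axis, log scale), coloured by mitochondrial share. The cells with 412 and 159 H3.Y UMIs lie at 416 and 865 cleavage-stage UMIs, while the cell with 101 lies at 14 and the cells with 1 H3.Y UMI lie at 10 or fewer.

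Among the transcription factors, *ZSCAN4*, a zinc-finger gene of the cleavage embryo, had 83 UMIs in 6 H3.Y-positive cells. They were 56 in the cell with 159 *H3.Y* UMIs, 12 and 7 in the cells with 13 and 16, 5 in the cell with 8, and 2 and 1 in cells with 3. The cell with the most *H3.Y* had 0 UMIs of *ZSCAN4*. H3.Y-negative DAC-treated cells had 31 UMIs in 18 cells, and mock-treated cells had 1 UMI. *LEUTX*, a paired-like homeobox gene, was found in 3 H3.Y-positive cells, with 5, 5 and 3 UMIs, and as 2 UMIs in 2 H3.Y-negative cells. *TPRX1*, another homeobox gene, had 11 UMIs in 2 H3.Y-positive cells, 10 of them in the cell with 16 *H3.Y* UMIs. *DUXB* had 4 UMIs, divided equally between the cells with 159 and 16 *H3.Y* UMIs, and was listed at 0 in all other cells.

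*DUX4* and *DUXA* were found in few H3.Y-positive cells. *DUX4* had 3 UMIs in 1 H3.Y-positive cell, a cell with 1 *H3.Y* UMI and 4 cleavage-stage UMIs, and 39 UMIs in 33 H3.Y-negative cells, shares of 1.67% and 1.95% of the cells. It had 0 UMIs in the 19 cells with at least 2 *H3.Y* UMIs. *DUXA* had 3 UMIs in 2 H3.Y-positive cells (3.33%), both with at least 2 *H3.Y* UMIs, and 29 in 11 H3.Y-negative cells (0.651%). *ZSCAN5B* and *ZNF280A*, zinc-finger genes, had 14 and 10 UMIs in the 60 H3.Y-positive cells and 159 and 121 in the 1691 H3.Y-negative cells. Per cell, both were thus higher in H3.Y-positive cells, though at few UMIs. Since *DUX4* lies in repeat arrays with near-identical copies, its counts are uncertain.

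*ZSCAN4*, *LEUTX* or *TRIM43*, the genes that mark the cleavage-stage state, were found in 9 of the 60 H3.Y-positive cells (15%), 29 of 1691 H3.Y-negative cells (1.71%) and 1 mock-treated cell. Of the 9 cells, 6 were among the 11 cells with 5 or more *H3.Y* UMIs, 3 among the 8 with 2 to 4, and 0 among the 41 with 1. Therefore, by these markers the name of a cleavage-stage state fitted a minority of the H3.Y-positive cells, and they are called here by the gene that chose them.

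Of the *TRIM* genes, which encode RING-finger ubiquitin ligase-like proteins, 9 of 12 had a UMI in H3.Y-positive cells, and all 12 had 0 UMIs in mock-treated cells. *TRIM43* had 17 UMIs in 6 H3.Y-positive cells (7, 3, 3, 2, 1 and 1) and 11 UMIs in 11 H3.Y-negative cells. *TRIM49B* (24 UMIs), *TRIM51* (21), *TRIM48* (19), *TRIM43B* (10), *TRIM49* (9) and *TRIM64* (6) were found in 2 to 6 H3.Y-positive cells each. In the cell with 412 *H3.Y* UMIs, *TRIM49B* had 15 and *TRIM51* 14 of these UMIs.

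*PRAMEF* genes, a primate-expanded family of leucine-rich repeat proteins, made up the largest sum, and 16 of 22 had a UMI in H3.Y-positive cells. *PRAMEF12* had 331 UMIs in 9 H3.Y-positive cells, of which 195 and 107 were in the cells with 412 and 159 *H3.Y* UMIs, 12 in a cell with 3, and 9 in the cell with 110. H3.Y-negative cells had 37 UMIs in 25 cells and mock-treated cells 0. At equal depth its ratio was 193 (105 to 386), 88.8 without its highest cell and 4.41 without the 3 cells with the most cleavage-stage UMIs. *PRAMEF14* had 120 UMIs in 6 H3.Y-positive cells and *PRAMEF1* 109 in 4, with 96 and 68 in the cell with 159 *H3.Y* UMIs. *PRAMEF12* had the most UMIs of these members in both cells, and the cell with 412 had 2 UMIs of *PRAMEF14* and 19 of *PRAMEF1*. *PRAMEF13* (37 UMIs), *PRAMEF5* (31), *PRAMEF11* (14), *PRAMEF9* (13), *PRAMEF6* (10), *PRAMEF2* (9), *PRAMEF8* (5), *PRAMEF4* (4), *PRAMEF27* (3) and *PRAMEF33* (3) followed. The *PRAMEF*, *TRIM49* and *MBD3L* genes are near-identical copies, so how reads were divided among members is uncertain.

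*RFPL4B*, a ret finger protein-like gene, was found in more H3.Y-positive cells than any *PRAMEF* gene. It had 256 UMIs in 14 H3.Y-positive cells, with 132, 63 and 22 in the cells with 159, 110 and 13 *H3.Y* UMIs and 0 in the cell with 412. H3.Y-negative cells had 144 UMIs in 102 cells and mock-treated cells 0, and the ratio at equal depth was 92.5 (58.9 to 150). Without cells of over 20% mitochondrial UMIs the ratio was 6.73, without its highest cell 38.6 and without thinning 46.5. Of the *MBD3L* genes, relatives of a methyl-CpG-binding protein, *MBD3L2B* had 52 UMIs in the cell with 412 *H3.Y* UMIs and 22 in the cell with 159, of 99 in 8 H3.Y-positive cells. At full depth, *MBD3L2* and *MBD3L3* had 15 and 15 UMIs in the cell with 412, with a total of 40840 UMIs. In the cell with 159, with a total of 24349, they had 21 and 16. The single draw of 10000 UMIs gave 1 and 4 UMIs in the cell with 412 and 12 and 8 in the cell with 159. *MBD3L2* had 56 UMIs in 7 H3.Y-positive cells, and *MBD3L3* 47 in 6, against 31 and 2 in H3.Y-negative cells. *RFPL4AL1* (20 UMIs), *RFPL4A* (16), *RFPL2* (13) and *RFPL1* (6) were lower, and all UMIs of *RFPL1* and *RFPL2* in H3.Y-positive cells came from 1 cell each.

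Other targets included *SLC34A2*, a sodium phosphate cotransporter. It had 191 UMIs in 12 H3.Y-positive cells, with 82 in the cell with 16 *H3.Y* UMIs, 58 in the cell with 159 and 17 in the cell with 412. H3.Y-negative cells had 63 UMIs in 34 cells and mock-treated cells 0, and its ratio at equal depth was 320 (149 to 818). H3.Y-negative cells had only 7 UMIs of it at equal depth, and the ratio was 129 with another seed, 88.3 at 20000 UMIs, 83.7 without thinning and 33.7 without cells of over 20% mitochondrial UMIs. *CCNA1*, a cyclin of male meiosis, had 35 UMIs in 9 H3.Y-positive cells and 45 in 39 H3.Y-negative cells, with 0 in mock-treated cells. *HNRNPCL2* (14 UMIs), *HNRNPCL3* (11), *FAM90A1* (19), *FRG2C* (8) and *KDM4E* (5) had UMIs in 2 to 5 H3.Y-positive cells each. *KHDC1L* and *SNAI1* were also found in many other cells: *KHDC1L* had 145 UMIs in 23 H3.Y-positive cells, 645 UMIs in 400 H3.Y-negative cells and 103 in mock-treated cells, and *SNAI1* had 43, 485 and 260. These 2 genes gave 363 of the 410 cleavage-stage UMIs of mock-treated cells.

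**Figure D3:**
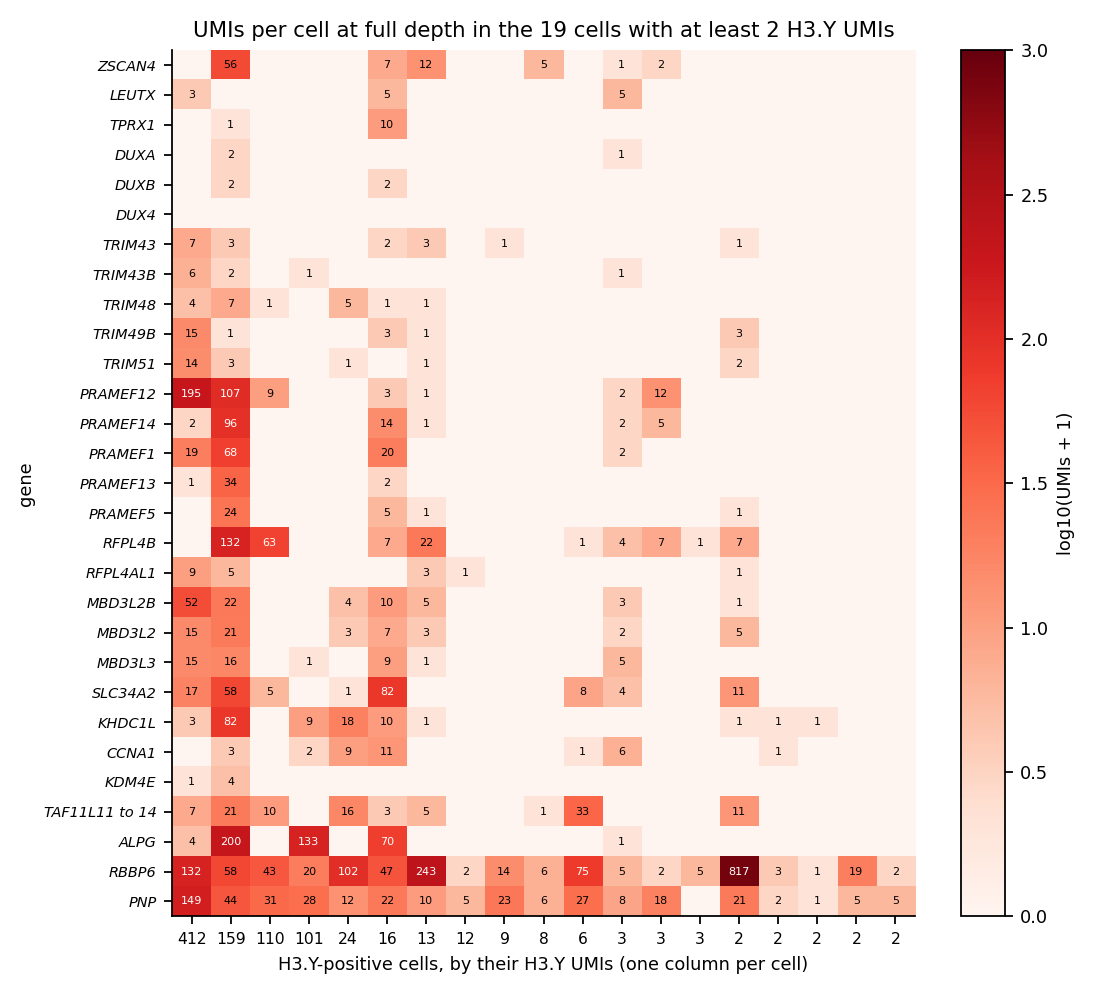
UMIs at full depth of the genes named on the y axis in each of the 19 cells with at least 2 H3.Y UMIs, ordered by those UMIs (x axis); colour is log10(UMIs + 1), the number is the UMI count and empty boxes are 0. The values differ between cells: PRAMEF12 has 195 UMIs and RFPL4B 0 in the cell with 412 H3.Y UMIs, RFPL4B has 132 in the cell with 159, SLC34A2 has 82 in the cell with 16, and RBBP6 has 817 in a cell with 2.

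Of the 68 genes, only 12 passed a filter of 20 UMIs over both groups at equal depth, and 7 of these passed only through the UMIs of H3.Y-positive cells. Of these 12, 10 were at 4-fold or more higher, beside 0.772% of all 12828 genes that passed, and nothing is read from that count. By the rule for genes confined to H3.Y-positive cells at equal depth, *PRAMEF9*, *MBD3L3* and *AC233724.6* (*TAF11L12* in GENCODE release 44) were found, at least 58.0-, 149- and 108-fold higher than 3 UMIs over the H3.Y-negative cells. At full depth, all 3 had UMIs in H3.Y-negative cells (1, 2 and 9). Listed genes at 0 in all H3.Y-negative and mock-treated cells at full depth were *HNRNPCL3* (11 UMIs in 3 H3.Y-positive cells), a copy of the RNA-binding *HNRNPC*, *DUXB* (4 in 2), *PRAMEF27* (3 in 2), *PRAMEF33* (3 in 1), *PRAMEF18* (2 in 2) and *DPRX* (1 in 1). Both sets of genes were picked by the same cell groups that they describe. The share of all genes that would pass either rule is not given here, so nothing is read from how many passed.

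*TAF11L12* belongs to a cluster of copies of *TAF11*, a subunit of the general transcription factor TFIID, on the same stretch of chromosome 5 as *H3.Y*. This cluster was looked at after the values of *TAF11L12* were seen. Its 4 members nearest to *H3.Y*, *TAF11L11* to *TAF11L14*, had lower coordinates 20.4 to 50.7 kb from the lower coordinate of *H3.Y*, which lies on the minus strand. They had 108 UMIs in 10 H3.Y-positive cells, 21 UMIs in 7 H3.Y-negative cells and 0 in mock-treated cells, so 83.7% of their UMIs were in H3.Y-positive cells. This share includes *TAF11L12*, chosen for its values in these cells, with 49 UMIs in H3.Y-positive and 9 in H3.Y-negative cells. *TAF11L11*, *TAF11L13* and *TAF11L14* had 39, 15 and 5 UMIs in H3.Y-positive cells and 8, 3 and 1 in H3.Y-negative cells. The cell with 6 *H3.Y* UMIs had the most UMIs of the 4 members together, 33, followed by the cells with 159 (21 UMIs), 24 (16), 2 (11), 110 (10) and 412 (7). The cell with 101 *H3.Y* UMIs had 0. Thus, 8 of the 11 cells with 5 or more *H3.Y* UMIs and 1 of the 41 cells with 1 had a UMI of these genes. The 9 members farther away had 1 UMI in all, from *TAF11L2*. The copies are near-identical, and how reads were divided among them is uncertain.

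H3.Y-negative DAC-treated cells were not free of the cleavage-stage genes. Their level of these genes was 38.7 CPM against 8.21 CPM in mock-treated cells, a ratio of 4.71 (4.24 to 5.25). The mock-treated level rested mostly on *KHDC1L* and *SNAI1*, with 363 of 410 UMIs, and a ratio without these 2 genes is not given here. Free RNA in the droplets can give single UMIs of cleavage-stage genes, and its level was not measured here. Its part in the ratio of 4.71 and in the 41 cells with 1 *H3.Y* UMI was not tested. At least 20 UMIs at full depth were found in 9 H3.Y-positive cells, 6 H3.Y-negative cells and 0 mock-treated cells, whose maximum was 4. One H3.Y-negative cell with 51 UMIs had 22 of *MBD3L2B* and 14 of *SLC34A2*. Another with 27 UMIs had 12 of *ZSCAN4*. A shallow one, with a total of 3059 UMIs, had 37 UMIs of 10 genes, among them 8 of *PRAMEF14*, 16 of *KHDC1L* and 2 of *TPRX1*. Since *H3.Y* was lost from most H3.Y-positive cells on thinning, a shallow cell at 0 UMIs of *H3.Y* cannot be told from one with a low level of it.

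Outside the lists, *ALPG*, *RBBP6* and *PNP* were high in several of the cells with 5 or more *H3.Y* UMIs. *ALPG*, an alkaline phosphatase of placenta and germ cells, had 414 UMIs in 9 H3.Y-positive cells: 200, 133, 70 and 4 were in the cells with 159, 101, 16 and 412 *H3.Y* UMIs. H3.Y-negative cells had 398 UMIs and mock-treated cells 5, and the ratio at equal depth was 38.3 (29.6 to 49.6). Its high values were in few cells, and without cells of over 20% mitochondrial UMIs the ratio was 0.728. The cell with 101 *H3.Y* UMIs, which had few cleavage-stage UMIs, was among those with high *ALPG*.

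*RBBP6*, a RING-finger protein that binds RB1 and p53, was the only gene at 2-fold or more among the 1263 genes expected at 50 or more UMIs in H3.Y-positive cells (0.0792%). Its ratio was 7.30 (6.63 to 8.04), with means of 10.98 and 1.504 UMIs per 10000. Without cells of over 20% mitochondrial UMIs it was 3.03, and the leading cells had 32.5% and 50.1% mitochondrial UMIs. Thinned values were 205 in a cell with 2 *H3.Y* UMIs, 155 in the cell with 13, 30, 29 and 28 in the cells with 412, 159 and 16, 14 in the cell with 6 and 10 in the cell with 24. The cells with 110, 101, 9 and 8 had 6, 3, 4 and 1. Cells with 1 *H3.Y* UMI had a mean of 1.54. The values thus overlapped, since the highest H3.Y-negative cell had 70 and 24 of 1243 had 10 or more. At full depth, the cell with 2 *H3.Y* UMIs had 817 UMIs of *RBBP6*, along with 7 of *RFPL4B* and 11 of *SLC34A2*.

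*PNP*, a purine nucleoside phosphorylase, was found in all 10 cells with 5 or more *H3.Y* UMIs at equal depth, at 35, 21, 11, 7, 6, 3, 3, 1, 1 and 1 UMIs. H3.Y-negative cells had a median of 0, an upper quartile of 1 and a maximum of 11. The mean in those 10 cells was 8.90 against 0.581, a ratio of 15.3, whereas cells with 1 *H3.Y* UMI had 0.714. *PNP* was named by its ratio in the cells with 5 or more UMIs, a rule added after the data were seen. Over all H3.Y-positive cells the ratio was 4.17 (3.41 to 5.06). *PNP* and *RBBP6* were also high in some H3.Y-negative cells with cleavage-stage UMIs. At full depth, they had 42 and 56 UMIs in the cell with 51 cleavage-stage UMIs and 30 and 69 in the cell with 27. Other such cells differed: they had 2 and 69 UMIs in a cell with 32 cleavage-stage UMIs in 75047, and 5 and 3 in a cell with 12 in 64334.

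Several heat shock and immediate early genes with high ratios had most of their UMIs in single cells. *HSPA2* and *RASD1*, among the 20 highest ratios, had 40 of 44 and 22 of 27 thinned UMIs in 1 cell, and without that cell the ratios were 0.805 and 1.69. *HSPA6*, a stress-inducible chaperone, had 86 UMIs at full depth in the cell with 159 *H3.Y* UMIs and 1 UMI in another H3.Y-positive cell. *FOS* had a ratio of 4.66 (3.17 to 6.68) and 2.25 without its highest cell, and *HSPA1A* 3.41 (2.78 to 4.16) and 2.34. *RRAD*, a small GTPase, had a ratio of 9.94 with 14 UMIs in the cell with 412 and 14 in the cell with 159, and a ratio of 5.13 with another seed. *JUN* was at 2.56 over H3.Y-positive cells with UMIs in 30 of 50 cells, and at 1.74 in the cells with 5 or more *H3.Y* UMIs. *RASL11A*, *SOX15*, *PHOSPHO2*, *LINC01511*, *Z93241.1*, *AP005482.1*, *AC006333.2* and *AC109588.1* were also among the 20 highest, with 5 to 28 UMIs each in H3.Y-positive cells and ratios of 4.59 to 7.10. These ratios rested on few UMIs and cells. With another seed, *PHOSPHO2*, *AC006333.2* and *AC109588.1* were at 1.04, 1.55 and 0.857. Without cells of over 20% mitochondrial UMIs, *RASL11A* was at 0.427, *Z93241.1* and *AP005482.1* at 0, *SOX15* at 2.24 and *LINC01511* at 2.38.

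At the other end, no gene expected at 50 or more UMIs was at 2-fold or more lower (0.0%). The lowest 10 were *MT1E* (ratio 0.529), *MT2A*, *MAP4*, *RNH1*, *PCLAF*, *KRT18*, *EPRS*, *HSPA4*, *PCBD1* and *PLEC* (0.612). Part of these values moved with the thinning or the cells used: *MAP4* (0.548) was at 0.971 with 20000 UMIs per cell, 0.888 without thinning and 0.995 without the 5% of cells with the most UMIs, *RNH1* (0.579) at 0.925 with 20000 UMIs and 0.871 with another seed, and *HSPA4* (0.592) at 0.936 without cells of over 20% mitochondrial UMIs. *KRT18*, a keratin of simple epithelia, had a mean of 23.9 UMIs in H3.Y-positive and 41.0 in H3.Y-negative cells, a ratio of 0.583 (0.550 to 0.618). Mock-treated cells had 19.8. In the 10 cells with 5 or more *H3.Y* UMIs it was 37, 36, 21, 20, 17, 12, 4, 4, 2 and 1, and the ratio was 0.376. Thus 4 of 10 of these cells, but also 216 of 1243 H3.Y-negative cells, were under 10 UMIs, and the groups overlapped. *MT2A*, a metal-binding metallothionein, was at 0 to 8 UMIs in the same 10 cells, with a mean of 2.30 against 9.70.

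Low *KRT18* was not limited to cells with cleavage-stage UMIs. Of the 35 cells with 1 *H3.Y* UMI, which had at most 3 cleavage-stage UMIs, 8 were under 10 UMIs of *KRT18*, with a minimum of 1, and H3.Y-negative cells reached 0. The cells with 412, 159, 16 and 13 *H3.Y* UMIs, which had the most cleavage-stage UMIs at equal depth among those 10, had 4, 4, 2 and 1 UMIs of *KRT18*, and a cell with 3 *H3.Y* and 17 cleavage-stage UMIs had 0. The cells with 101, 9 and 8 *H3.Y* UMIs, with 0 to 2 cleavage-stage UMIs, had 17, 21 and 37. The cell with 110 had 16 cleavage-stage UMIs and 36 of *KRT18*. In the cell with 412, *KRT8* was at 128 UMIs at full depth and *GAPDH* at 165, whereas *KRT18* was at 16. At equal depth, *KRT8* (28 UMIs) and *GAPDH* (36) were above the upper quartiles of H3.Y-negative cells, 25 and 28. *KRT18* had under 0.25 of the UMIs of *KRT8* in 2 of the 1243 H3.Y-negative cells. In the cells with 16 and 13, which had 65.1% and 50.1% mitochondrial UMIs, *GAPDH* was also low, at 2 and 1 UMIs. With 5000 non-mitochondrial UMIs per cell, *KRT18* had a mean of 8.20 in the 10 cells and 27.1 in H3.Y-negative cells.

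**Figure D4:**
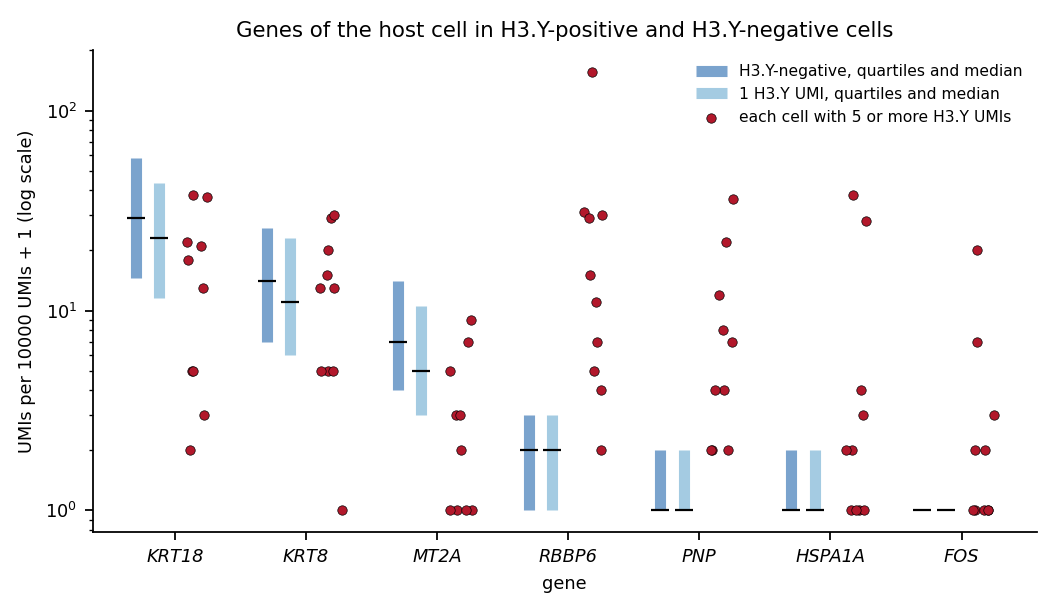
UMIs per 10000 UMIs plus 1 (y axis, log scale) of 7 genes: bars are the quartiles and dashes the median of 1243 H3.Y-negative cells and of 35 cells with 1 H3.Y UMI, and each point is 1 of the 10 cells with 5 or more H3.Y UMIs. KRT18 and MT2A lie at or below the lower quartile in part of the points, at means of 15.4 and 2.30, and RBBP6 and PNP lie mostly above the upper quartile, at means of 28.0 and 8.90.

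Most other gene lists differed little between H3.Y-positive and H3.Y-negative cells. The 17 epithelial markers of colon cancer lines, of which 12 passed the filter, together had a ratio of 0.711 (0.685 to 0.738), with 0 members at 2-fold or more higher, 1 lower and a median ratio of 0.818, beside 5.57% and 12.7% of all genes and a median of 0.960. *KRT18* made up the largest part of this sum, while *KRT19* was at 0.970 and *EPCAM* at 0.842. Fibroblast and immune markers were close to absent in H3.Y-positive cells, at 0.220 and 0.240 UMI per cell, and *PTPRC* was at 0. G2/M genes had a ratio of 0.818 (4 of 54 at 2-fold or more lower) and S-phase genes 0.914 (2 of 37). Interferon-stimulated genes had a ratio of 0.943, with 11 of 36 at 2-fold or more lower. Heat shock and immediate early genes had 1.16, with 9 of 20 at 2-fold or more higher. p53 target genes had 1.24, with 1 of 26, and medians of 15 UMIs in H3.Y-positive and 13 in H3.Y-negative cells. Cancer-testis genes (0.964), germ cell genes (0.995), pluripotency factors (1.20), trophoblast markers (1.05), core histones (1.07), repressors of the *DUX4* arrays (0.906) and endogenous retrovirus loci (0.850) were near 1.

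The cells with 5 or more *H3.Y* UMIs differed more. G2/M genes had a median of 19.5 UMIs in them against 53 in H3.Y-negative cells (quartiles 17 and 85), and S-phase genes 10.5 against 25 (10 and 39). The values ranged from 8 to 118 and from 3 to 80, so that the cell with 412 *H3.Y* UMIs had 113 and 80. Interferon-stimulated genes were at a ratio of 0.683, with 0 to 92 UMIs per cell. RNA processing and decay genes were at 1.57, and most of that sum was the nuclear RNA *MALAT1*, with 263 UMIs per cell against 156. DAC-induced genes of the whole library were at 1.54. Heat shock and immediate early genes were at 1.71, with a median of 107.5 UMIs against an upper quartile of 92.5 in H3.Y-negative cells, which 6 of the 10 cells exceeded. In cells with 1 *H3.Y* UMI, RNA processing genes were at 1.01, DAC-induced genes at 0.965 and heat shock and immediate early genes at 0.992. Other lists differed there too: epithelial markers were at 0.752 (0.720 to 0.785), G2/M genes at 0.852 (0.812 to 0.893) and p53 target genes at 1.21 (1.12 to 1.31). The ratio of p53 target genes included a cell with 86 UMIs, and their medians were 15 UMIs in cells with 1 *H3.Y* UMI and 13 in H3.Y-negative cells. *KRT18* had a mean of 27.7 in these cells against 41.0.

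**Figure D5:**
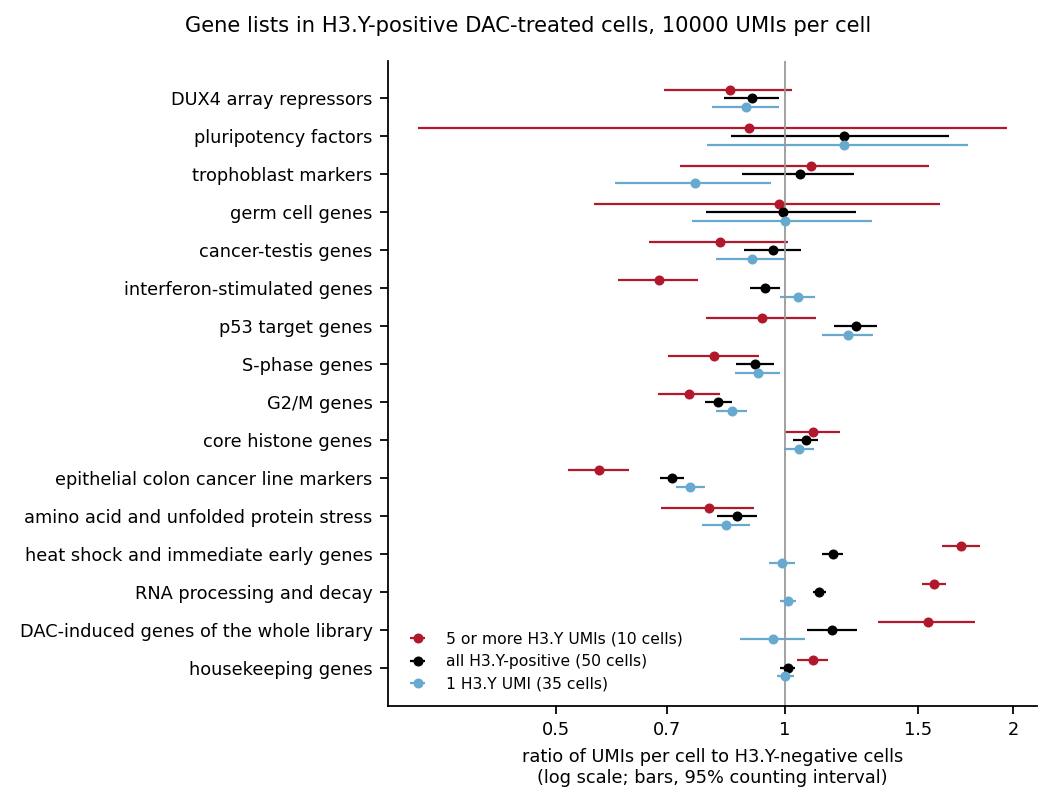
Ratio of the summed UMIs per cell of each of 16 gene lists (y axis; cleavage-stage, fibroblast, immune and endogenous retrovirus lists are not drawn) to H3.Y-negative DAC-treated cells at 10000 UMIs per cell (x axis, log scale) for all 50 H3.Y-positive cells, the 10 with 5 or more H3.Y UMIs and the 35 with 1; bars are 95% counting intervals. Among the lists drawn, epithelial markers lie lowest, at 0.711 over all cells and 0.570 in the cells with 5 or more, and heat shock and immediate early genes lie highest in the latter, at 1.71.

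Genes almost silent in mock-treated cells were counted as the 13171 genes with at most 2 UMIs in every mock-treated cell, without the cleavage-stage lists. H3.Y-positive cells had a median of 123 UMIs of these genes per 10000 and H3.Y-negative cells 109 (quartiles 88 and 139), a ratio of means of 1.20 (1.17 to 1.22). Cells with 1 *H3.Y* UMI had a median of 118. Cells with 5 or more had a median of 161, from 76 to 579, and the highest was the cell with 159 *H3.Y* UMIs. Without cells of over 20% mitochondrial UMIs, the ratio was 1.02.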

How the data were processed

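The authors deposited raw UMI counts of each gene in each cell, made with Cell Ranger on hg38, per the labels and the study's methods. The annotation release is not given in the sources used here. Counts of 33538 genes were matched by identifier, and positions and upstream sequences were taken from hg38 with GENCODE 44. No cell was removed by quality and no doublet caller was run, since cells of 1 line carry no marker for doublets. Cells were thinned without replacement to 10000 UMIs, and UMIs were summed by group. Ratios have exact conditional 95% intervals, shares exact Clopper-Pearson intervals and sums exact Poisson intervals. Scripts ran in Python 3.11.15 (numpy 2.4.6, scipy 1.17.1, pandas 2.3.3, matplotlib 3.10.9) and were tested on simulated data.

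The members and lists were chosen with earlier results of these data known. Named genes were the markers, cleavage-stage genes with 3 or more UMIs in H3.Y-positive cells, the 20 highest ratios (20 or more UMIs, 5 or more H3.Y-positive cells), the 10 lowest (50 or more expected UMIs), genes confined to H3.Y-positive cells (5 or more UMIs in 3 or more cells) and 1 to 4 members of other lists. Genes leading in cells with 5 or more *H3.Y* UMIs were added afterwards.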

Additional observations from a re-analysis of the deposited data

Results flagged for a closer look

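Cells under 10000 UMIs were not used in the comparisons at equal depth, and some of them also had UMIs of cleavage-stage genes. The 10 shallow H3.Y-positive cells had 43 UMIs of cleavage-stage genes in 26883 UMIs, 16.0 per 10000 (11.6 to 21.5), and 34 of these were in 1 cell. The 448 shallow H3.Y-negative DAC-treated cells had 1.65 per 10000 (1.43 to 1.91), with a maximum of 37 in a cell. The 395 shallow mock-treated cells had 0.0853 per 10000 (0.0466 to 0.143). Both DAC-treated groups were above the mock-treated level in cells outside the main measurement, which is why they are given here.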

How the results depend on the processing

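The share of H3.Y-positive cells was 1.08% with a limit of 2 UMIs, 0.799% with 3 UMIs, and 1.30%, 1.47% and 2.03% with *H3.Y* read after thinning to 5000, 10000 and 20000 UMIs. In all alternatives the cleavage-stage ratio (39.8) stayed above 1: 130 and 172 with limits of 2 and 3 UMIs, 98.6 with *H3.Y* read after thinning, 30.5 at 5000 UMIs, 22.7 without thinning, 17.0 and 30.0 without cells over 20% and 50% mitochondrial UMIs, 19.6 and 6.04 without the top 1 and top 3 cells, 47.2 with 5000 non-mitochondrial UMIs, and 3.81 on mean log2(UMIs + 1). The share of H3.Y-positive cells with a cleavage-stage UMI was 80%, 90.9%, 63.2%, 26.9%, 70.0% and 27.7% with 2 UMIs, 3 UMIs, *H3.Y* after thinning, 5000 UMIs, no thinning and 5000 non-mitochondrial UMIs. The 99 genes at 4-fold or more became 437, 563 and 312 under the first 3 of these, 48 without cells over 20% mitochondrial UMIs, 60 without the top 3 cells, 240 and 25 with filters of 10 and 50 UMIs, and 715 and 29 at 2- and 8-fold. The epithelial ratio (0.711) was 0.620, 0.527, 0.490, 0.767, 0.777 and 0.759 with 2 UMIs, 3 UMIs, *H3.Y* after thinning, 5000 UMIs, 20000 UMIs and without the 5% of cells with the most UMIs. The ratio of cells with 1 *H3.Y* UMI (1.04) was 0.372 at 5000 UMIs. The ratio of genes low in mock-treated cells (1.20) was 1.71, 1.85, 1.57, 1.23, 1.16 and 1.11 with 2 UMIs, 3 UMIs, *H3.Y* after thinning, 5000 UMIs, 20000 UMIs and no thinning, 1.02 and 1.14 without cells over 20% and 50% mitochondrial UMIs, 1.12 and 1.11 without the top 1 and top 3 cells, and 1.29 with 0 UMIs in mock-treated cells. Single genes turned below 1: *PHOSPHO2* (0 with 3 UMIs or non-mitochondrial UMIs), *AC109588.1* (0.857 with another seed), *ALPG* (0.728), *RASL11A* (0.427), *Z93241.1* and *AP005482.1* (0) without cells over 20% mitochondrial UMIs, *Z93241.1* (0) also at 50%, and *HSPA2* (0.805 and 0.630) without the top 1 and top 3 cells. The cause was not tested. Leaving out the top 3 cells, the non-mitochondrial setting, and the alternatives of the epithelial ratio and of the ratio of genes low in mock-treated cells, except 20000 UMIs and 0 UMIs in mock-treated cells, were added after seeing the data. With 1 library per condition, the spread between cultures is unknown, and depth limits any reading of cells with 0 or 1 *H3.Y* UMI. No paired analysis was possible because each condition had 1 library.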
